A study of Potamopyrgus antipodarum with 6 samples.

Results

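Heavily precipitated long stretches are transcribed regions of Potamopyrgus antipodarum, the mud snail of New Zealand, at which an antibody against methylated cytosine pulled down the most DNA over a length of at least 500 bp. They were chosen on the counts of all pools together. The counts of the 6 pools were summed in each 100 bp window, a covered stretch ran on until at least 8 windows in a row had no count in any pool, and the set took each stretch of 5 or more windows whose mean summed count was above 240 per window. Of 43878 covered stretches 2989 (6.81%) met this rule, which is 12.8% of the 23376 stretches of 5 or more windows. They comprised 22089 windows, or 2208.9 kb, and 10.1% of the 218652 windows that held a count in any pool. The level of the set and its contrast with other stretches were fixed by this choice and are given as descriptions, with no test. Positions are given from 1 on a single sequence into which the contigs of a transcriptome reference had been joined, so they are not positions in a genome.

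The samples were foot tissue of this asexual snail, with river pools 10, 11 and 12 from a site labelled SnakeSide and lake pools 1, 2 and 3 from Lake Lytle (Oregon). The study sampled the main channel of the Snake River and a tributary spring stream at Ritter Island, Idaho. Which of these SnakeSide denotes was not settled here. Each pool held 10 individuals per the labels, adult wild snails per the study with no treatment, and all were kept at 14 °C for several days before dissection. These pools cover a single river site and a single lake, so that habitat, distance and population cannot be told apart. The tissue was not checked, since precipitated DNA holds no expression markers.

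MeDIP precipitates sheared DNA that carries 5-methylcytosine, so that a count rises with the methylation of a region, the number of its CpG sites and its copy number. In molluscs, as in other invertebrates, DNA methylation is known as a mosaic, in which the bodies of a subset of genes are densely methylated and the DNA between them is largely free of the mark. The reference used for these reads holds transcribed sequence only, so regions between genes are not seen. A count is not a methylation level, and CpG number and copy number of these stretches were not used here.

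Total counts were 2721381, 2212650 and 4175301 in river pools 10, 11 and 12, and 4040377, 4435396 and 5013750 in lake pools 1, 2 and 3, a range of 2.27 times. The difference between lake pools 2 and 3 had a chi-square of 0.805 per window over 111368 windows, where independent counting noise gives about 1. They were therefore counted as 1 sample in each mean, which was a choice. A value under 1 is lower than independent counts would give, so this measure cannot show whether the 2 pools are 1 sample. Means of the lake therefore have n = 2. The labels call the pools separate samples but do not say how they were drawn. Per the study, the snails of each site were divided among 3 pools and each pool gave its own DNA. The study thus treated lake pools 2 and 3 as separate pools. The tests measure only the spread between these pools. Counted in the set alone, this pair had a chi-square of 0.536 per window, and the pairs of lake pool 1 with pool 2 (0.793) and with pool 3 (0.891) were also under 1. Over all windows these other lake pairs had 1.08 and 1.20, so lake pool 1 was kept as a sample of its own. For river pool 12 the value was 2.24 when paired with river pool 10 and 4.24 with 11, whereas it was 0.920, 1.60 and 1.43 when paired with lake pools 1, 2 and 3. By this measure, from which the trend of pool ratios with count was not removed, river pool 12 was nearer to each lake pool than to the other river pools. Results that rest on it are given with and without it.

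The set formed the upper shoulder of the distribution of mean counts. The mean summed count per window had a median of 458.5 in the set, with quartiles at 326 and 649 and a highest value of 1453, whereas the median of all stretches of 5 or more windows was 42.3. No gap parted the set from the rest. Just inside the threshold lay the stretches that start at 8135601, 41622501 and 62394901, with 240.1 to 240.3 summed counts per window, and just outside it those at 33105301, 73430401 and 18391401, with 239.8 to 240. A further 1414 of the 20502 stretches of 4 windows or fewer (6.90%) also had a mean above 240 and were left out by length alone.

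**Figure D1:**
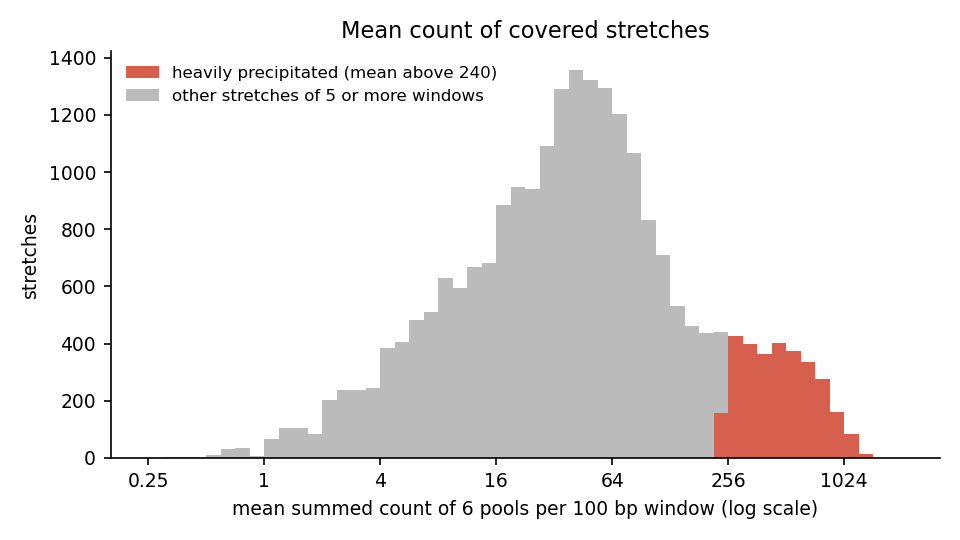
Number of stretches of 5 or more windows (vertical axis) by the mean summed count of the 6 pools per 100 bp window (horizontal axis, log scale), with the 2989 heavily precipitated stretches in red and the others in grey. The red part forms a shoulder to the right of the main peak, with a median of 458.5 counts against 42.3 for all stretches drawn.

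Individual windows reached a shared ceiling. In the set the mean count per window was 70.3, 58.8 and 97.0 in river pools 10, 11 and 12, and 95.5, 101 and 110 in lake pools 1, 2 and 3. The highest count of a window was 300 in every pool, although the totals of the pools differed. At that value lay 6, 6 and 18 windows of the set in river pools 10, 11 and 12, and 17, 11 and 26 in lake pools 1, 2 and 3. Counts of 250 or more were found in 344, 234 and 1040 windows of the set in the river pools, and in 945, 1125 and 1542 in the lake pools. The sources used here do not state such a limit.

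The most heavily precipitated stretch, at positions 2509801 to 2510900, held 2509, 2308 and 2785 counts in the river pools, and 2741, 2812 and 2829 in the lake pools. The next, at 7584301 to 7585500, held 2717, 2573 and 2908 counts in the river pools, and 2887, 2876 and 2895 in the lake pools. In both the river pools spread over a wider range than the lake pools, and river pool 12 lay among the lake pools or above them. The third, at 30764101 to 30764600, had 1161, 1166 and 1165 counts in the river pools, and 1165, 1141 and 1164 in the lake pools. Its 3 inner windows had 295 to 300 counts in every pool, so that here the 6 pools were almost identical although their totals were not. In 36 stretches of the set, with a median mean summed count of 692, the highest and the lowest pool differed by under 1.1 times.

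Heavily precipitated stretches were slightly longer than other long stretches. Their median length was 700 bp (quartiles 500 and 800 bp, 95th percentile 1300 bp), whereas the other 20387 stretches of 5 or more windows had a median of 600 bp and a 95th percentile of 1200 bp. The share of stretches that belonged to the set was 9.91% at 5 windows, 12.5% at 6, 15.3% at 7 to 8, 14.8% at 9 to 12, 14.9% at 13 to 19 and 29.9% (20 of 67) at 20 or more. Among members the median of the mean summed count was 407, 431, 472, 532, 608 and 666 over the same length classes, so that longer members were also denser. Edge windows weigh less in the mean of a long stretch, and this part of the relation was not tested.

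The longest member was also the longest of all covered stretches. It spanned 4200 bp at positions 129501 to 133700 and held 4395, 3256 and 6415 counts in river pools 10, 11 and 12, and 6234, 6513 and 7400 in lake pools 1, 2 and 3. River pool 12 was within the range of the lake pools and the other river pools were below it. Its log2 fold change, river over lake, was 0.23 (SE 0.16, edgeR quasi-likelihood adjusted p = 0.399) and 0.04 when scaled by total count alone. With scaling factors that follow the summed count of a whole stretch (trended offsets) it was -0.38 (SE 0.12, edgeR quasi-likelihood adjusted p = 0.0758). Its direction thus turned with the scaling. Both members of 2800 bp, at 1054401 to 1057200 and at 564201 to 567000, had 911 and 863 summed counts per window, about the density of the longest member at 815.

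Counts fell steeply at both ends. The outermost windows of a stretch had a median of 128 summed counts, the windows next to them 494 and the windows farther in 687. The edge-to-centre ratio, which divides the mean of the first and the last window by the mean of windows at least 2 windows from both edges, had a median of 0.188 (quartiles 0.0752 and 0.331). It was below 0.5 in 89.1% of members and below 0.1 in 30.3%. In stretches with a mean of 120 to 240 the median ratio was 0.230, in those of 60 to 120 it was 0.266, and in those of up to 60 it was 0.375. Windows lie on a fixed grid over the joined contigs, so an outermost window can hold less than 100 bases of its contig, and the part of this in the fall was not tested.

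Most of the fall lay in the outermost window, and the next inward window was also lower. In the 244 members of 12 or more windows the first 6 windows had medians of 0.129, 0.765, 0.983, 1.03, 1.07 and 1.07 of the stretch median. Counted inward from the end, the last 6 windows had 0.148, 0.880, 1.08, 1.09, 1.14 and 1.14. In the 91 stretches of this length with a mean of 120 to 240 the outermost windows were likewise far below the median of their stretch, as the plot of counts from the start and the end shows.

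**Figure D2:**
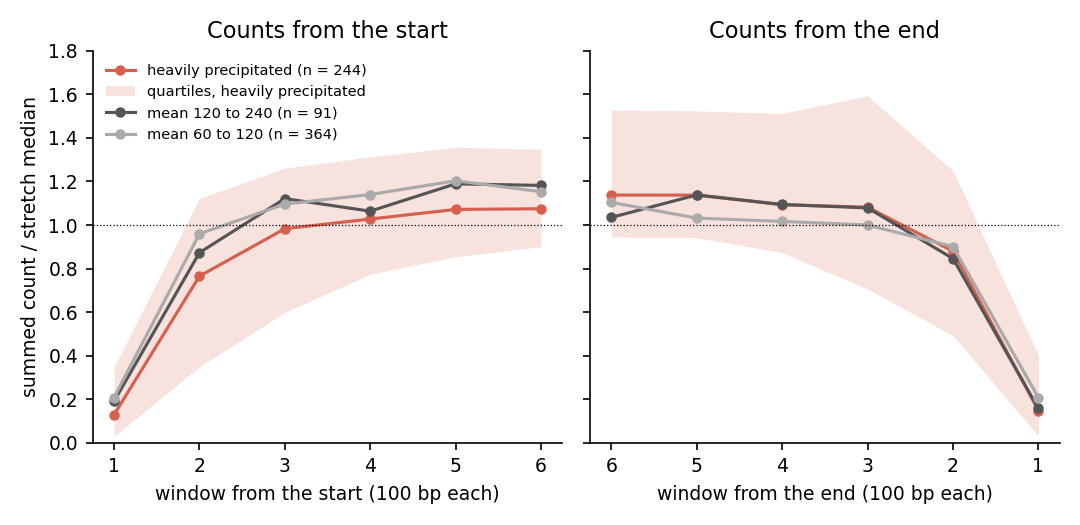
Summed count of the 6 pools divided by the median of the stretch (vertical axis) against the window counted from the start (left) or from the end (right), in stretches of 12 or more windows. Points are medians, the band gives the quartiles of the 244 heavily precipitated stretches, and the outermost windows lie at 0.129 and 0.148 of the stretch median.

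An exception to the fall was rare. Only 99 members (3.31%) had edges as dense as their centre, whereas this held for 13.7% of stretches with a mean of 120 to 240. The highest ratio among members of 8 or more windows was found at 10949101 to 10949900, where nearly all counts lay in the first 2 windows. Its second window had 192, 193 and 201 counts in the river pools, and 196, 193 and 198 in the lake pools, while the fourth window had 4, 0 and 10 counts in the river pools, and 3, 5 and 3 in the lake pools. The stretch at 28137601 to 28138400 was the reverse, with at most 3 counts per pool in each of its first 5 windows and 238, 224 and 255 counts in the river pools, and 250, 246 and 260 in the lake pools, in its seventh. Both were members through a few dense windows, and the same windows were dense in every pool. They were also the 2 least even members of 8 or more windows.

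The lowest ratios had another form. At 11655401 to 11656700 the first window held a single count over all pools, whereas the sixth held 280, 276 and 293 counts in the river pools, and 289, 286 and 293 in the lake pools. The stretch at 16967301 to 16968300 likewise started and ended with 1 count, and the third window from its start held 187, 182 and 261 counts in the river pools, and 263, 260 and 275 in the lake pools.

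Away from the edges the counts were comparatively even. The interior coefficient of variation (CV), taken over the windows of a stretch without the first and the last, had a median of 0.408 (quartiles 0.260 and 0.658), whereas it was 0.602 in stretches with a mean of 120 to 240 and 0.503 in those of 60 to 120. The most even members of 8 or more windows were those at 5631101 to 5632100 (CV 0.0705) and at 14944701 to 14945500 (CV 0.0725). The inner windows of the first held 206 to 252 counts in river pool 10, 181 to 224 in river pool 11 and 223 to 281 in river pool 12, and 217 to 275, 210 to 284 and 214 to 286 in lake pools 1, 2 and 3. No window of it fell out of line in any pool. No window of any pool held more than 300 counts, and the part of this ceiling in the evenness was not tested.

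Many members nevertheless had a thin place. Of 16111 interior windows 2393 (14.9%) held less than 0.5 of the median of their stretch, 1439 members (48.1%) had no such window, 1005 had 1 and 545 had 2 or more. Of these dips 1854 (77.5%) were below 0.5 in each of the 6 pools taken alone. The dips were picked on the sum of the same 6 pools, so this share was partly fixed by the choice. Of the dips 65.2% were second from an edge, although only 37.1% of interior windows were. The median ratio of the highest to the lowest interior window of a stretch was 3.05.

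Interior windows of the set ranked similarly in every pool. Each interior count was divided by the mean of its stretch in that pool. For each pair of pools a single Spearman correlation was computed over the 16111 interior windows of all members. Averaged over the pairs of pools, it was 0.966 within the river, 0.984 within the lake and 0.956 between the sites. It was not computed per stretch, so the likeness of single stretches between pools was not measured. Windows of 1 stretch are not independent and pools differ in depth, so these are descriptions.

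**Figure D3:**
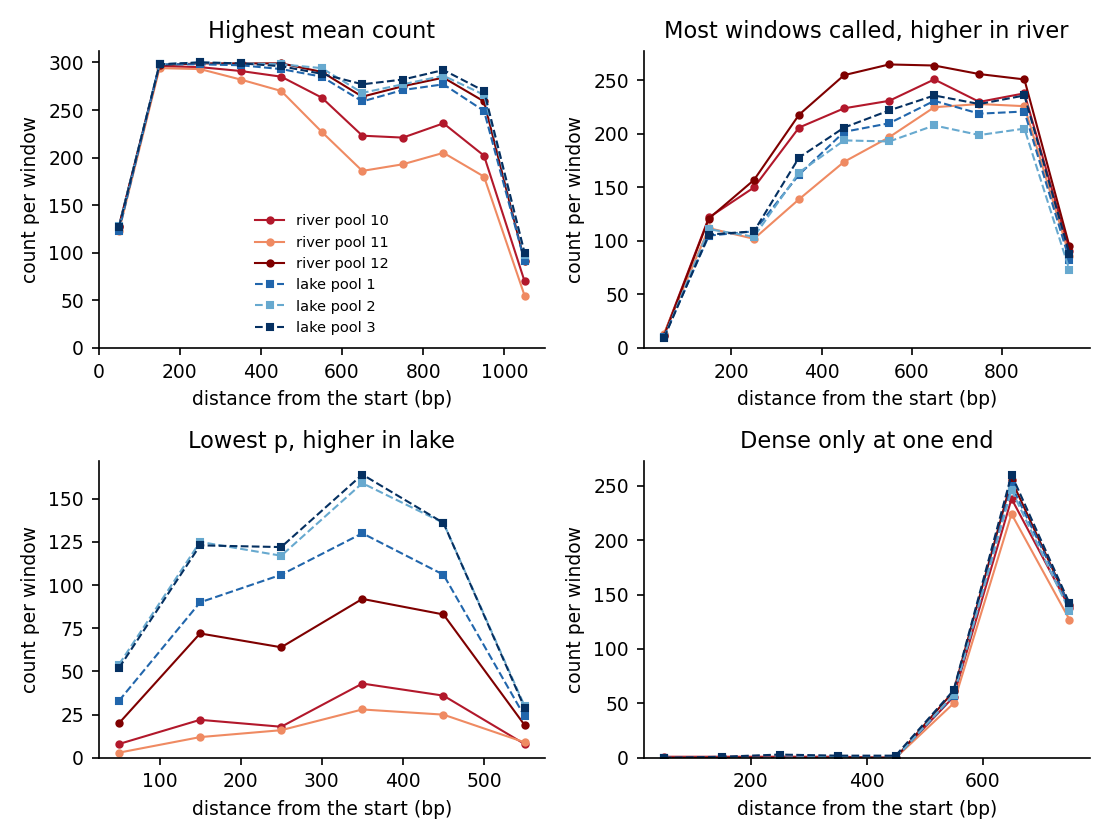
Count per 100 bp window (vertical axis) against the distance from the start of the stretch (horizontal axis), for river pools (circles, red) and lake pools (squares, blue), in 4 named members. Counts press against 300 in the stretch with the highest mean, and the fall at the edges lies in the same windows in all 6 pools.

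The set took a larger share of the counts of the shallower pools. It held 57.0%, 58.7% and 51.3% of all counts in river pools 10, 11 and 12, and 52.2%, 50.2% and 48.4% in lake pools 1, 2 and 3, with exact binomial (Clopper-Pearson) 95% intervals that cover counting error only and are narrow, as in river pool 11, where the interval was 58.6% to 58.7%. River pool 12 lay below lake pool 1, so the sites overlapped. The means were 55.7% ± 3.86 in the river (SD, n = 3) and 50.7% ± 2.06 in the lake (SD, n = 2), a difference of 4.93 percentage points that the exact two-sided permutation test did not tell from 0 (p = 0.3, the smallest p possible being 0.1). Ordered by total count, from river pool 11 over river pool 10, lake pool 1, river pool 12 and lake pool 2 to lake pool 3, the share fell at every step. The part of depth in this order was not tested.

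Edges and evenness followed the totals almost as closely. The median edge-to-centre ratio was 0.179, 0.178 and 0.185 in river pools 10, 11 and 12, and 0.187, 0.193 and 0.193 in lake pools 1, 2 and 3. The sites did not overlap, with a difference of -0.00951 between the means (0.181 ± 0.00342 in the river, n = 3, and 0.190 ± 0.00413 in the lake, n = 2, SD, exact permutation test p = 0.2). With 3 values against 2 the smallest p possible is 0.1, so this test could not pass 0.05 and does not decide whether the sites differ. The median interior CV was 0.456, 0.493 and 0.424 in the river pools, and 0.411, 0.391 and 0.382 in the lake pools. It was thus higher in every river pool, by 0.0590 between the means (0.458 ± 0.0347 in the river, n = 3, and 0.399 ± 0.0169 in the lake, n = 2, SD; exact p = 0.2). With lake pools 2 and 3 kept apart, a choice made after seeing the data, both differences reached the smallest p that 3 pools against 3 allow (exact p = 0.1). With counts thinned to the total of river pool 11, also chosen after seeing the data, they were -0.00908 (exact p = 0.1) and 0.0533 (exact p = 0.2). Thinning matched the totals only, since windows near 300 counts were drawn from counts already at that ceiling.

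**Figure D4:**
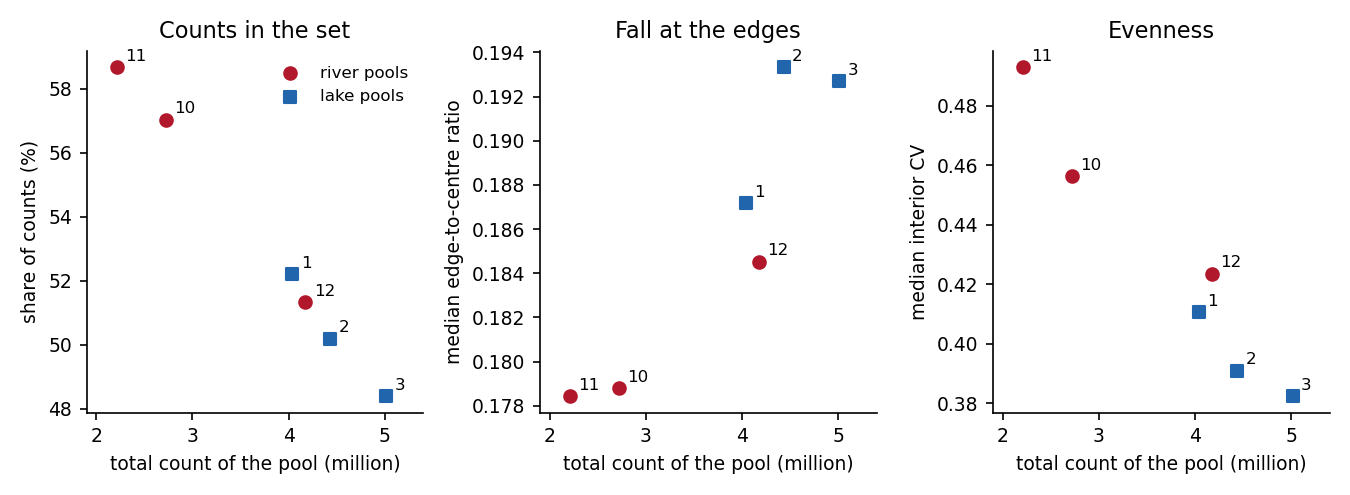
Share of counts in the set, median edge-to-centre ratio and median interior CV (vertical axes, which do not start at 0) against the total count of the pool (horizontal axes), for river pools 10, 11 and 12 (circles) and lake pools 1, 2 and 3 (squares). River pool 12, with 4175301 counts, lies beside lake pool 1 in each panel and away from the other river pools.

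The question put to the data was whether snails of the river and of the lake differ in methylation, and no heavily precipitated stretch as a whole passed the test. With edgeR's quasi-likelihood test on counts summed per stretch, 0 of 2989 members had a Benjamini-Hochberg adjusted p under 0.05, beside 0.00796% of all 37710 stretches tested, and the lowest adjusted p among members was 0.0862. At an unadjusted p under 0.05 there were 1204, of which 1117 were higher in the river and 87 in the lake, beside 24.2% of all stretches (12.6% higher in the river and 11.6% in the lake). With lake pools 2 and 3 summed into 1 sample this number was 533 (494 and 39), beside 14.5%, and without river pool 12 it was 2071 (1858 and 213), beside 39.8%. Other tools on the same counts called more. The edgeR exact test called 337 members (314 higher in the river and 23 in the lake) beside 9.54% of all stretches, and the DESeq2 Wald test called 567 (548 and 19) beside 8.24%. Without river pool 12 the quasi-likelihood test called 1768 (1623 and 145), beside 29.6% of all stretches, while leaving out any other single pool gave none.

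The fold changes of members leaned to the river. Their median log2 fold change was 0.31, against -0.05 over all stretches tested, and 2468 (82.6%) were positive, against 47.3% of all stretches. The values of members ranged between -0.97 and 1.18. In CPM, that is counts per total adjusted by TMM (the trimmed mean of M-values, the main scaling), the sites did not overlap in 952 members, of which 732 were higher in the river and 220 in the lake, beside 27.2% of all stretches (11.4% higher in the river and 15.7% in the lake). Without river pool 12 the number was 2508 (2186 higher in the river and 322 in the lake), beside 56.4% of all stretches (25.1% and 31.3%), and without lake pool 1 it was 1851 (1586 and 265), beside 45.2% (20.4% and 24.8%). Scaling by total count alone moved the median over all stretches to -0.22 and that of members to 0.12, a gap of 0.34 where the main scaling gave 0.37, and split 1000 non-overlapping members into 581 higher in the river and 419 in the lake, beside 28.2% of all stretches (8.8% and 19.4%).

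The lean grew with the level of the stretch. The median log2 fold change was -0.39 at a mean summed count of 60 to 120 and 0.00 at 120 to 240, both outside the set. Among members it was 0.20 at 240 to 360 (970 stretches), 0.26 at 360 to 480 (632), 0.34 at 480 to 720 (840), 0.44 at 720 to 960 (404), 0.56 at 960 to 1200 (122) and 0.72 above 1200 (21). Unscaled counts of pool pairs converged over the same range. River pool 12 had a median of 1.98 times the counts of river pool 11 at 240 to 360 and 1.15 times above 1200, where their totals stood at 1.89 times. Lake pool 3 had 1.20 and 1.02 times the counts of lake pool 1 in these classes (totals 1.24 times), river pool 11 had 0.431 and 0.843 times those of lake pool 3 (totals 0.441 times), and river pool 12 had 1.02 and 1.00 times those of lake pool 1 (totals 1.03 times). The ratio thus moved towards 1 within each site as well as between sites.

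Abundance-trended offsets by construction centre the ratios of pools along the summed count of a whole stretch, over all stretches, not along its mean count per window. The median log2 fold change of members under them, -0.00, is shaped by this centring and bears neither for nor against a lean. Under them the medians were -0.26 at a mean summed count of 60 to 120 and -0.06 at 120 to 240. They were between -0.02 and 0.02 from 240 to 960, 0.07 at 960 to 1200 and 0.14 above 1200. What the fit ranks is each stretch against others of like summed count. It called 56 members, 23 higher in the river and 33 higher in the lake, beside 0.66% of all stretches. CPM under these offsets did not overlap in 1186 members, 536 higher in the river and 650 in the lake, beside 27.1% of all stretches (12.7% and 14.4%). The part of depth and of the ceiling of 300 counts in the lean to the river was not tested.

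**Figure D5:**
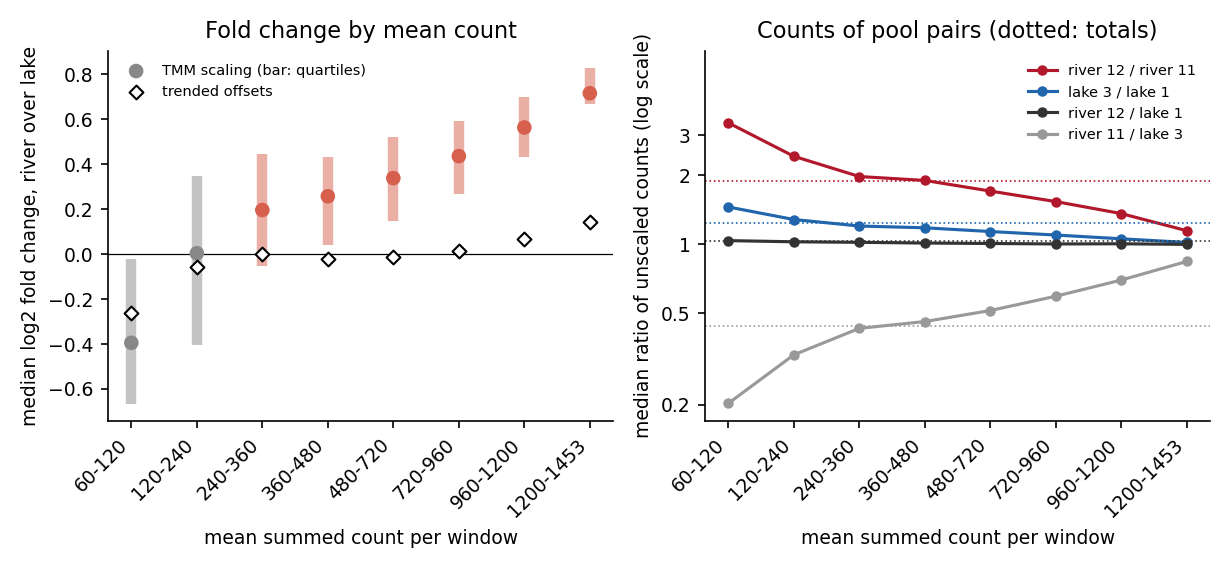
Left, median log2 fold change, river over lake, by mean summed count per window, with quartiles as bars (members red, other stretches grey) and medians under abundance-trended offsets as diamonds. Right, median ratio of unscaled counts between pairs of pools (log scale), with the ratio of their totals dotted. The left medians climb to 0.72 above 1200 summed counts, while the right ratios approach 1.

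Unscaled counts were also compared, and these rise with the total of a pool. River pools 10 and 11 had totals of 2721381 and 2212650, below the lowest lake total of 4040377 in lake pool 1. Lower counts in river pools 10 and 11 are thus partly set by depth and do not show a difference between the sites. The part of depth in the numbers below was not tested. In 1179 members (39.4%) every river pool had fewer counts than every lake pool, beside 27.3% of all stretches tested, and in 8 members every river pool had more, beside 1.15%. River pool 12, of about the depth of lake pool 1, had more counts than any lake pool in 295 members (9.87%), beside 17.9% of all stretches, and the 23 members called higher in the river with trended offsets were all among them.

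The member with the lowest p in the direction of the river was at 25634001 to 25634600 (600 bp). It had 260, 228 and 344 counts in the river pools, and 210, 189 and 240 in the lake pools. River pools 10 and 12 exceeded every lake pool before any scaling, and river pool 11, at 0.441 times the total of lake pool 3, exceeded lake pools 1 and 2. In CPM it averaged 101 ± 23.4 in the river (SD, n = 3) and 45.9 ± 5.77 in the lake (SD, n = 2), a log2 fold change of 1.18 (SE 0.21, edgeR quasi-likelihood adjusted p = 0.0862). Most of its counts were in its first 2 windows, so it passed the threshold of the set, at 245 summed counts per window, through these.

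The next in this direction, at 33998801 to 33999400, had 592, 611 and 792 counts in the river pools, and 561, 490 and 601 in the lake pools. The stretch at 39674901 to 39675400 followed, with 358, 341 and 430 counts in the river pools, and 309, 292 and 340 in the lake pools. In it every river pool was above every lake pool without scaling. Their log2 fold changes were both 1.10 (SE 0.22 each, edgeR quasi-likelihood adjusted p = 0.0862 each).

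In the direction of the lake the lowest p belonged to the stretch at 22581001 to 22581600. It had 135, 93 and 350 counts in the river pools, and 489, 621 and 626 in the lake pools, with no overlap. In CPM it averaged 61.1 ± 16.2 in the river (SD, n = 3) and 120 ± 4.49 in the lake (SD, n = 2), a log2 fold change of -0.97 (SE 0.21, edgeR quasi-likelihood adjusted p = 0.0862). The stretch at 29695301 to 29696100 had 136, 123 and 263 counts in the river pools, and 389, 516 and 616 in the lake pools, and that at 26004701 to 26005300 had 96, 77 and 218 in the river pools, and 320, 356 and 408 in the lake pools. Their log2 fold changes were -0.81 (SE 0.19) and -0.80 (SE 0.19), and in both each river pool was below each lake pool. All 6 of these members passed with trended offsets, at adjusted p between 0.0312 and 0.0475 (edgeR quasi-likelihood test with 6 pools), and in the same directions. With lake pools 2 and 3 summed into 1 sample under the main scaling, the adjusted p of each was 0.310.

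Single windows passed the test more often than whole stretches did. This was so over all features tested too, where 1.09% of windows and 0.00796% of stretches passed. Of 20444 windows of the set with at least 10 summed counts, 259 had an adjusted p under 0.05 in edgeR's quasi-likelihood test (217 higher in the river and 42 in the lake), beside 1.09% of all 146394 windows tested (0.669% and 0.419%). They lay in 131 members, 71 of which held a single called window, and no member held calls in both directions. The calls numbered 30 among 4654 outermost windows, 89 among 5794 second windows and 140 among 9996 windows farther in, and the median log2 fold change in these positions was 0.18, 0.26 and 0.27. When lake pools 2 and 3 were summed into 1 sample a single call was left. Of the pools left out in turn, river pool 12 gave 8729 calls, beside 21.1% of all windows, river pool 11 gave 88, beside 0.507%, lake pool 1 gave 5, beside 0.0488%, and the other 3 gave 0 (edgeR quasi-likelihood test). With all pools 6731 windows of the set had an unadjusted p under 0.05, beside 21.1% of all windows. With trended offsets 1264 windows were called, 433 higher in the river and 831 in the lake, beside 3.09% of all windows. With total counts alone 310 were called, 167 higher in the river and 143 in the lake, beside 0.693%.

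The window with the lowest p was at 16385501 to 16385600, second from the end of a stretch of 1100 bp. It had 78, 66 and 103 counts in the river pools, and 46, 54 and 49 in the lake pools, a log2 fold change of 1.52 (SE 0.22, edgeR quasi-likelihood adjusted p = 0.00317). All river pools were above all lake pools without scaling. In the direction of the lake it was the window at 9113901 to 9114000, with 9, 5 and 19 counts in the river pools, and 44, 57 and 59 in the lake pools (log2 fold change -1.55, SE 0.28, edgeR quasi-likelihood adjusted p = 0.0249). These windows and the stretch described next were singled out after their values were seen.

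The member with the most called windows was at 37794001 to 37795000, where 9 of 10 windows passed, all higher in the river. It had 1755, 1502 and 1893 counts in the river pools, and 1551, 1460 and 1618 in the lake pools. River pools 10 and 12 exceeded every lake pool before scaling, and river pool 11 exceeded lake pool 2. The log2 fold changes of the 9 windows were between 0.94 and 1.16, with adjusted p between 0.0302 and 0.0484, while the stretch as a whole had 0.99 (SE 0.22, edgeR quasi-likelihood adjusted p = 0.0862).

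Few stretches of any kind carry a gene name, 19 of the 2989 members and 305 of all 43878 covered stretches. The names come from the study's tables of regions selected for a difference between a lake and a river. For 11 of the 19 members the name comes from the table for Lake Lytle only, for 6 from a table made on another lake and river only, and for 2 from both. The table for Lake Lytle rests at least in part on these samples, so the direction of members named from it is no independent evidence. In 7 of the 19 the tables place every name in the category epigenetic, and 4 of these 7 share the name LOC105888664, the stretch at 37794001 to 37795000 among them. All 7 are in the table for Lake Lytle. The role of this identifier is not stated in the files or the study. The 7 had mean summed counts of 579 to 1159, log2 fold changes of 0.91 to 1.01 and CPM higher in every river pool than in any lake pool (edgeR quasi-likelihood adjusted p = 0.0862 for each). Their river pool 12 also exceeded every lake pool without scaling in 7 of 7, and river pool 10 did in 5. With trended offsets all 7 passed the test, with log2 fold changes of 0.37 to 0.60, whereas with lake pools 2 and 3 summed under the main scaling the adjusted p of each was 0.310. The 7 were grouped after their values were seen. A further member, at 3846001 to 3847200, has epigenetic among other categories and is named only from the table made on another lake and river. Its log2 fold change was 0.17 (SE 0.16, edgeR quasi-likelihood adjusted p = 0.543), and -0.23 with trended offsets (adjusted p = 0.224).

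The member at 46241601 to 46242200, also named LOC105888664, had 1079, 890 and 1240 counts in the river pools, and 953, 833 and 1018 in the lake pools. That at 32522901 to 32523700 had 935, 780 and 986 in the river pools, and 800, 774 and 814 in the lake pools. The last with this name, at 2479401 to 2480700, had 2597, 2438 and 2778 in the river pools, and 2384, 2359 and 2511 in the lake pools. In each of the 3 these unscaled counts put the river pools in the order of their totals, with river pool 12 highest and river pool 11 lowest. Stretches that share a name may share sequence, in which case their reads cannot be told apart.

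Of the other 12 named members 9 had a positive and 3 a negative log2 fold change. A stretch named BMP5, in vertebrates a secreted ligand of the bone morphogenetic protein pathway, was at 18721901 to 18722700 and had 486, 401 and 840 counts in the river pools, and 996, 1108 and 1214 in the lake pools. Its log2 fold change was -0.21 (SE 0.17, edgeR quasi-likelihood adjusted p = 0.463), and -0.56 with trended offsets (adjusted p = 0.0475), so its call depended on the scaling. A stretch named gas2l2, in vertebrates a protein that links actin and microtubules, had 511, 444 and 606 counts in the river pools, and 622, 677 and 702 in the lake pools (log2 fold change 0.46, SE 0.21, edgeR quasi-likelihood adjusted p = 0.184, and 0.12 with trended offsets, adjusted p = 0.569). That named for Cnot6l, in mammals a deadenylase of the CCR4-NOT complex, had 895, 499 and 1111 counts in the river pools, and 826, 879 and 1066 in the lake pools (log2 fold change 0.60, SE 0.18, edgeR quasi-likelihood adjusted p = 0.0862, and 0.23 with trended offsets, adjusted p = 0.297). No member was named for a mitochondrial or ribosomal gene. The 9 stretches named COX1, a mitochondrial gene present in many copies per cell, all stayed outside the set, at 33.5 to 210 summed counts per window.

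Members were spread unevenly along the joined sequence. Over 10 equal parts of it, in order, 8.34%, 11.2%, 10.3%, 13.2%, 26.7%, 25.4%, 14.0%, 8.45%, 9.39% and 14.5% of stretches of 5 or more windows belonged to the set, so the middle of the sequence was richest. Of all members 560 (18.7%) had another right before or after them, and the longest run held 5. The stretch after a member was itself a member in 10.1% of cases, against 7.60% after another long stretch. The order of contigs in the reference is not an order in the genome, so this describes the reference only.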

How the data were processed

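MeDIP-Seq was carried out on foot tissue DNA of 3 river and 3 lake pools, with the DNA sheared by a 300 bp program. Per the labels and the methods of the study, the authors trimmed the reads with Trimmomatic after FastQC, mapped them with Bowtie2 (default settings) and SAMtools to a transcriptome reference, counted them in 100 bp windows with MEDIPS and compared the sites with edgeR. Versions are not given in the sources used here, and lanes held 3 libraries whose assignment is likewise not given there. The deposited count per window and pool was not normalised and was the only measure used. The authors also deposited an RPKM value per window and pool, the mean count and RPKM of each site (recorded as a score), and the edgeR log2 fold change, log2 CPM, p-value and adjusted p-value, none of which was used. No column of per-sample values was left without a pool.

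Stretches were runs of windows parted by 8 or more empty windows, since 32993 of 43877 such runs were 8 to 10 windows long, as spacers between contigs would be. The set, its members and the lists were chosen with earlier results of these data known. Sites were compared over all 37710 stretches, and over all 146394 windows, with at least 10 summed counts by edgeR 4.0.16 (limma 3.58.1, R 4.3.3), with TMM scaling, robust quasi-likelihood F tests (two-sided), no covariate and Benjamini-Hochberg adjustment at 0.05. Fold changes are river over lake, and CPM use TMM-adjusted totals. Means and single values per pool, compared by exact two-sided permutation tests, took lake pools 2 and 3 as 1 sample, while the fits kept 6 pools. The alternatives were DESeq2 1.42.0 (size factors, Wald test), total counts, abundance-trended offsets per pool (loess, span 0.3), the edgeR exact test, other count minimums, gaps and thresholds, lake pools 2 and 3 summed, and each pool left out. Counts thinned to the total of river pool 11, which leave the share of counts as it was by construction, lake pools 2 and 3 kept apart and the omission of windows that reached 150 counts were added after seeing the data. The fits were tested on simulated data. Python 3.11.15 with NumPy 2.4.6, SciPy 1.17.1, pandas 2.3.3 and matplotlib 3.10.9 gave the other values. Named stretches are the 3 longest, the 3 of highest mean, the 2 most and least even, the 2 of highest and lowest edge ratio (each among members of 8 or more windows), the 3 of lowest p in each direction, the 3 on either side of the threshold, and any annotated with a mitochondrial or ribosomal gene (0 found). Other names in the text were chosen after their values were seen. Gene names come from region tables of the study, matched by position. Contig sequences were not used here, so no sequence is printed.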

Additional observations from a re-analysis of the deposited data

How the results depend on the processing

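Of 138 values computed under alternatives, 109 stayed within their limits, which for a count is 1.5 times and does not speak of direction. Of the values past their limits, only the median log2 fold change with trended offsets changed sign, from 0.31 to -0.00139. With these offsets the balance also turned to the lake for window calls (433 higher in the river and 831 in the lake, against 217 and 42). The same held for members whose CPM did not overlap (536 and 650, against 732 and 220). Stretches called numbered 0 in the main fit, but 56 with trended offsets, 337 with the edgeR exact test and 567 with the DESeq2 Wald test. The main test and scaling without a low-count filter called 382 (beside 6.59% of all stretches). Windows called numbered 259, but 954 with DESeq2 size factors (beside 3.78% of all windows), 1264 with trended offsets, 2249 with the exact test (beside 6.88%), 2008 with the Wald test (beside 3.39%), 2205 without a filter (beside 4.2%), 1 with a minimum of 60 summed counts and 1 with lake pools 2 and 3 summed. Leaving out each pool in turn gave 0 to 1768 stretches called, 0 to 8729 windows called and 1001 to 2508 members whose CPM did not overlap, with the highest of each without river pool 12, and 1851 non-overlapping members without lake pool 1. Of all stretches 32.2% to 56.4% did not overlap in these fits. It gave differences of 3.43 to 7.11 percentage points in share, -0.0124 to -0.00843 in edge ratio and 0.0413 to 0.0760 in CV, and median log2 fold changes of 0.20 to 0.43. The median log2 fold change was -0.00139 with trended offsets, which by construction centre the ratios of pools along the summed count of a stretch. A gap of 11 empty windows, which joins neighbouring contigs by construction, left 161 stretches, 48 non-overlapping, 28 windows called, an edge ratio of 0.244 and a CV of 0.799. The edge ratio was 0.209 with all inner windows as the centre and 0.149 in members of 8 or more windows, and the CV was 0.706 with edge windows included. Without windows that reached 150 counts the difference in share was 3.00 percentage points (exact p = 0.3). Unless construction shows it, the cause was not tested. No paired analysis was possible because river pools 10 to 12 and lake pools 1 to 3 have no number in common. With 3 pools per site and a depth range of 2.27 times, exact permutation tests of values per pool could not pass 0.05, and windows at 300 counts cannot show further increase.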

Other observations

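In 148 members, windows with an unadjusted p under 0.05 (edgeR quasi-likelihood test) lay in both directions within the same stretch, although no member held calls in both directions after adjustment. Windows called higher in the river had a median of 655 summed counts and those called higher in the lake 300.5, where the tested windows of the set had a median of 507. River pool 12 and lake pool 1, of nearly equal total count and from opposite sites, had a chi-square of 0.920 per window over the set, where counting noise alone gives about 1. This was above each pair of lake pools in the set (0.536, 0.793 and 0.891). Over all windows river pool 12 and lake pool 1 had 1.15.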
